A study of Mus musculus with 29 samples.

Results

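Metallothioneins are small cysteine-rich proteins that bind zinc and copper, and the 8 genes described here are 3 of them together with genes that control their transcription or move zinc and related metals across membranes. They are Mt1, Mt2, Mt3, Mtf1, Slc30a1, Slc30a3, Slc30a10 and Slc39a14. Each was taken as the probe set whose single annotated symbol was that gene, which gave 8 of the 19938 genes tested, with 1 probe set each. Mt2 was chosen by its measured levels in wild type mice, which were lower at 18 than at 6 months, and the other genes were listed with it, so values of that comparison are given without a test for all 8 genes. The data are microarray expression levels of the caudate nucleus, the dorsal part of the striatum, from 29 mice with 1 array each, given on a log2 scale on which a difference of 1 is a doubling.

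HdhQ150 mice carry an expanded CAG repeat in the mouse Huntington's disease gene Htt, and the comparison mice were wild type animals of the same litters. There were 5 HdhQ150 mice of 6 months, 6 of 12 months and 4 of 18 months, and 5, 5 and 4 wild type mice of these ages. All were on the strain background given as 129/Ola x C57BL6/J, none was treated, and whether the HdhQ150 mice carried 1 or both altered alleles is not given in the sources used here. Of the mice, 23 were labelled female and 6 male, and both 18-month groups were all female. The study followed gene expression and behaviour over age in this model.

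Htt ran from 8.50 to 8.99 in HdhQ150 mice over all ages, against 8.87 to 9.20 in wild type mice, and did not overlap between the genotypes within any age. Xist was at 5.95 in mouse 1023, an HdhQ150 animal of 6 months whose label says female, where the other labelled females had 11.11 to 11.64 and the labelled males 5.50 to 6.13. Eif2s3y, a gene of the Y chromosome, was at 8.30 in mouse 1023, against 3.67 to 4.05 in other labelled females and 7.04 to 8.42 in labelled males. Both genes thus had male levels in this mouse, which the fit reported here entered as female. The array of mouse WT-454, of the 12-month wild type group, correlated with its group at a mean of 0.945, where every other mouse had at least 0.9747. Markers of striatal projection neurons were present (Ppp1r1b 10.59 to 11.76, Drd2 10.02 to 11.53), but so was the cortical neuron marker Slc17a7, with group means of 11.14, 8.68 and 11.28 in HdhQ150 mice at 6, 12 and 18 months and 11.13, 9.74 and 11.45 in wild type mice. The labels give no dissection day, extraction or array batch, so age and any batch that followed it cannot be told apart.

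Cells raise metallothionein transcription when free zinc rises. The zinc-sensing transcription factor MTF-1, product of Mtf1, then binds short metal response elements in the promoters of Mt1, Mt2 and the zinc exporter gene Slc30a1. In brain, Mt1 and Mt2 are made largely by astrocytes and are also induced by glucocorticoids, whereas Mt3 is a form found mainly in the nervous system. ZnT transporters (Slc30 genes) take zinc out of the cytosol, ZIP transporters (Slc39 genes) bring metal into it, and ZnT3, the product of Slc30a3, loads zinc into the synaptic vesicles of many cortical glutamatergic neurons.

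Mt3, Mt2 and Mt1 lie side by side on chromosome 8 in that order, after Mt4, with the noncoding gene Gm39227 between Mt3 and Mt2. Slc30a1 and Slc30a10 are on chromosome 1, Mtf1 on 4, Slc30a3 on 5 and Slc39a14 on 14. The 250 bases before the annotated start of each are shown because these 3 genes differed in how they followed age. They are RefSeq sequences of the plus strand of GRCm38.p6, at chr8:94172368-94172617 for Mt2, chr8:94178839-94179088 for Mt1 and chr8:94152357-94152606 for Mt3. Capitals mark TGCACNC or TGCGCNC, the core letters of the metal response element, searched on both strands with overlaps allowed.
Mt2: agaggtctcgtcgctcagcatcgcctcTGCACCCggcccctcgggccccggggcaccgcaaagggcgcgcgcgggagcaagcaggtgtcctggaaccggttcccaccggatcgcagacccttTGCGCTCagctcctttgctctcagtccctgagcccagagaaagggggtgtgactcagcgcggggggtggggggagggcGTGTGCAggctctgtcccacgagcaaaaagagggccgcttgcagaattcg
Mt1: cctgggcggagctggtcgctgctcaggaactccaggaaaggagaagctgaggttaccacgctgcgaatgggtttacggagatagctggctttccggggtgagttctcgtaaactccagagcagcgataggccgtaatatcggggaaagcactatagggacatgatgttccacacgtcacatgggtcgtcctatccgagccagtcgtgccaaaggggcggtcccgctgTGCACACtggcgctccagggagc
Mt3: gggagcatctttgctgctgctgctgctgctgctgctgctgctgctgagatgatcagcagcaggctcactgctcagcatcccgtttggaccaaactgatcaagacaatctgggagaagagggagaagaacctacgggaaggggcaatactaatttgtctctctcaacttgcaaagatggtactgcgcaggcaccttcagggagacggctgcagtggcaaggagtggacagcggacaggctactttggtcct
Mt2 held 3 such matches in these bases, Mt1 held 1 and Mt3 held 0. With the 50 bases after the start added, the counts were 4, 3 and 1, so they depended on the window. Bases farther after the annotated start were not searched. Over windows of those 300 bases, 25.7% of all 32851 RefSeq promoters held at least 1 match, 7.11% at least 2, 1.97% at least 3 and 0.517% at least 4. The same windows held 2 matches for Slc30a1, 3 for Slc30a10, 0 for Mtf1, and 1 and 0 for the pair of Slc30a3 promoters. A match is a description of letters and says nothing on its own of binding.

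Mt2 stood at 12.13, 12.04, 12.11, 12.21 and 11.89 in HdhQ150 mice at 6 months. At 12 months the 6 HdhQ150 mice had a lowest value of 10.94, a median of 11.35 and a highest of 11.57, and at 18 months the 4 mice had 11.39, 11.62, 11.17 and 11.21. Every HdhQ150 mouse of 12 or 18 months was therefore below every HdhQ150 mouse of 6 months, while the ranges at 12 and 18 months overlapped. Wild type mice had Mt2 at 12.08, 12.26, 12.14, 12.11 and 12.22 at 6 months. The 12-month mice had 11.21, 11.38, 11.61, 11.50 and 11.54, and the 18-month mice 11.31, 11.39, 11.28 and 11.38. The wild type ages showed the same gap after 6 months, and those values at 6 and 18 months are the ones by which Mt2 was picked.

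Mt1 stood at 10.72, 10.71, 10.65, 10.75 and 10.70 in HdhQ150 mice at 6 months. Its lowest, median and highest values were 10.14, 10.41 and 10.62 at 12 months, and the 18-month values were 10.28, 10.40, 10.23 and 10.09. The 6-month HdhQ150 mice were again above all the older ones. Wild type mice had Mt1 at 10.80, 10.94, 10.81, 10.89 and 11.06 at 6 months. The 12-month values were 10.34, 10.59, 10.67, 10.53 and 10.59, and those of 18 months 10.27, 10.24, 10.33 and 10.28. The wild type values of the 3 ages did not overlap, and the lowest value at 12 months was that of mouse WT-454.

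Mt3 was much flatter. It averaged 10.10 ± 0.11, 10.17 ± 0.06 and 10.15 ± 0.04 in HdhQ150 mice at 6, 12 and 18 months (SD, n = 5, 6 and 4) and 10.04 ± 0.07, 10.15 ± 0.05 and 10.16 ± 0.06 in wild type mice (SD, n = 5, 5 and 4). Its highest and lowest group means were 0.13 apart, where those of Mt1 were 0.65 apart and those of Mt2 0.86 apart.

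Mtf1 had 8.31, 8.34, 8.51, 8.50 and 8.35 in HdhQ150 mice at 6 months, a lowest, median and highest value of 8.11, 8.24 and 8.29 at 12 months, and 8.02, 8.06, 8.13 and 8.15 at 18 months. Its wild type values were 8.37, 8.46, 8.45, 8.42 and 8.26 at 6 months, then 8.22, 8.36, 8.35, 8.31 and 8.25 at 12 months, with 8.07, 8.19, 8.02 and 8.05 at 18 months. In both genotypes all 18-month mice were below all 6-month mice.

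Slc30a3 had another course. In HdhQ150 mice it had 8.58, 9.13, 9.19, 8.94 and 8.29 at 6 months, a lowest, median and highest value of 7.54, 7.68 and 7.92 at 12 months, and 8.58, 9.23, 8.38 and 9.01 at 18 months. Its wild type values were 8.62, 8.97, 9.43, 8.86 and 8.48 at 6 months, then 8.13, 8.46, 7.77, 7.55 and 8.02 at 12 months, with 9.40, 9.25, 9.49 and 8.56 at 18 months. The 12-month mice were the low ones in each genotype, and the 6-month and 18-month mice overlapped.

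The 3 other transporters moved less than Slc30a3 did. Slc30a1, the plasma membrane zinc exporter, averaged 7.87 ± 0.05, 7.93 ± 0.04 and 7.92 ± 0.04 at 6, 12 and 18 months in HdhQ150 mice and 7.94 ± 0.05, 7.99 ± 0.06 and 7.87 ± 0.14 in wild type mice. Slc30a10, which exports manganese, averaged 7.66 ± 0.17, 7.76 ± 0.07 and 7.67 ± 0.08 in HdhQ150 mice and 7.72 ± 0.06, 7.69 ± 0.12 and 7.52 ± 0.08 in wild type mice. Slc39a14 encodes ZIP14, which imports zinc, iron and manganese, and averaged 7.70 ± 0.12, 7.52 ± 0.11 and 7.63 ± 0.07 in HdhQ150 mice and 7.75 ± 0.06, 7.64 ± 0.11 and 7.61 ± 0.07 in wild type mice (SD, group sizes as for Mt3). The highest and lowest group means were 0.12 apart for Slc30a1, 0.24 for Slc30a10 and 0.23 for Slc39a14, against 1.45 for Slc30a3 and 0.32 for Mtf1. In bulk tissue such as this, fewer cells of a type and less RNA in each cell cannot be told apart.

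**Figure D1:**
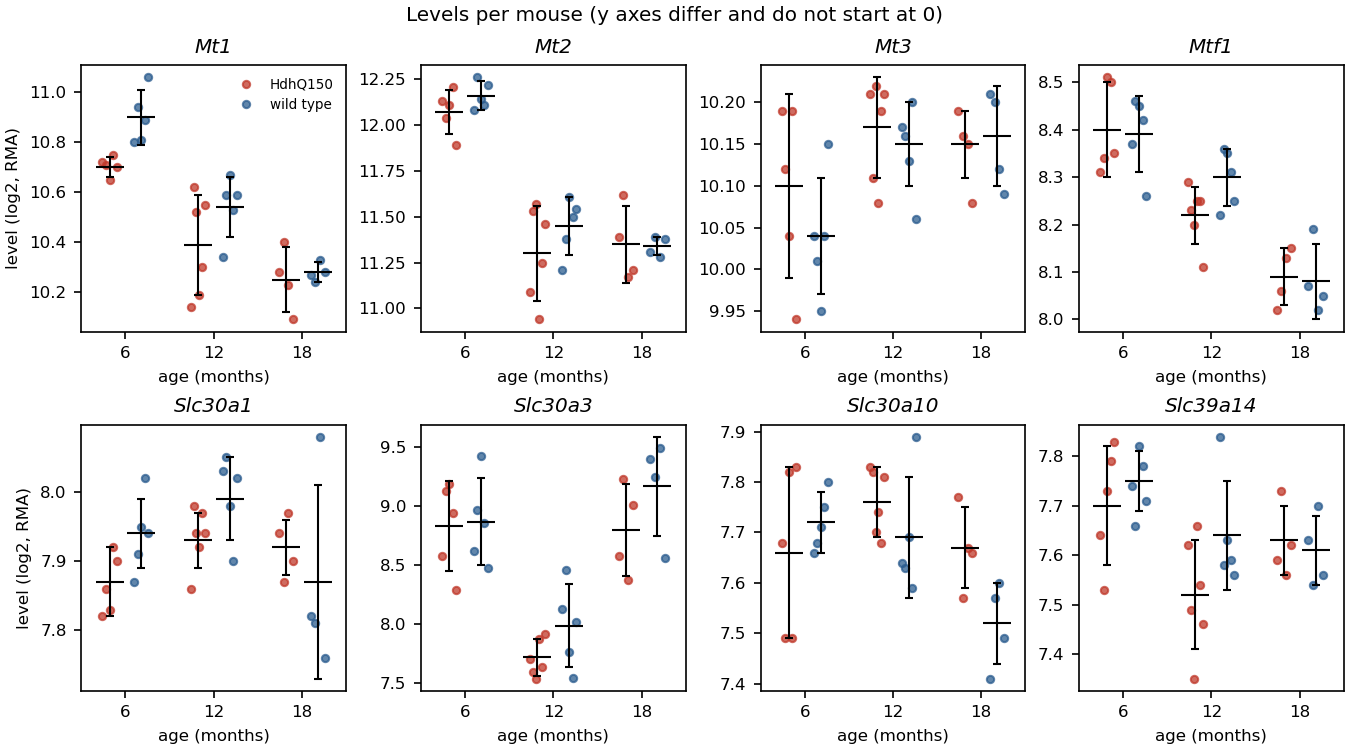
Log2 level of each of the 8 genes (vertical axis) in every mouse at 6, 12 and 18 months (horizontal axis), with HdhQ150 mice left of wild type mice at each age and bars for the mean ± SD. Mt1 and Mt2 are highest at 6 months in both genotypes, Slc30a3 is lowest at 12 months, and Mt3 is nearly level.

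The first comparison the design implies is HdhQ150 against wild type at each age. It was fitted with limma across all genes, with Benjamini-Hochberg adjustment across the 19938 genes and a threshold of 0.05. Mt2 at 6 and 18 months is given without a test, because the wild type mice of those ages are the ones by which it was chosen. Mt1 varied with Mt2 from mouse to mouse (Pearson's r 0.82, group and sex means removed). Tests of Mt1 that use wild type mice of those ages are therefore not independent of that choice either. None of the 7 other genes passed at any age, nor did Mt2 at 12 months. Genes past the threshold were 0.0251% of all genes at 6 months, 0.938% at 12 months and 0.135% at 18 months. At an unadjusted p under 0.05 by limma there were 2738, 1790 and 1159 of the 19938 genes at the 3 ages. Of the members tested, Mt1 at 6 months alone was among them.

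Mt1 at 6 months averaged 10.70 ± 0.04 in HdhQ150 mice and 10.90 ± 0.11 in wild type mice (SD, n = 5 each). Each HdhQ150 mouse was below each wild type mouse. Such a gap between groups was seen for 1 of the 8 genes and for 3.18% of all genes. The difference was -0.21 (SE 0.0787, 95% interval -0.37 to -0.0484) with an adjusted p of 0.229 by limma, which is short of the threshold. At 12 months it was -0.15 (interval -0.3 to 0.00595, adjusted p 0.594) and at 18 months -0.03 (interval -0.203 to 0.153, adjusted p 0.996), with overlapping mice at both ages.

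Mt2 differed by -0.13 at 12 months (interval -0.328 to 0.0618, adjusted p 0.815 by limma). As a description, it differed by -0.10 at 6 months and by 0.01 at 18 months. Slc30a3 had wide intervals, with -0.28 at 12 months (-0.664 to 0.111, adjusted p 0.793) and -0.38 at 18 months (-0.826 to 0.0729, adjusted p 0.95). Slc30a10 at 18 months differed by 0.15 (interval -0.0102 to 0.306, adjusted p 0.899). The groups of every member overlapped at 12 and at 18 months, where 1.59% and 3.7% of all genes did not. The median difference of the 8 genes was -0.05 at 6 months, -0.10 at 12 months and 0.01 at 18 months, beside 0.01 over all genes at 6 months and 0.01 at 12 months.

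**Figure D2:**
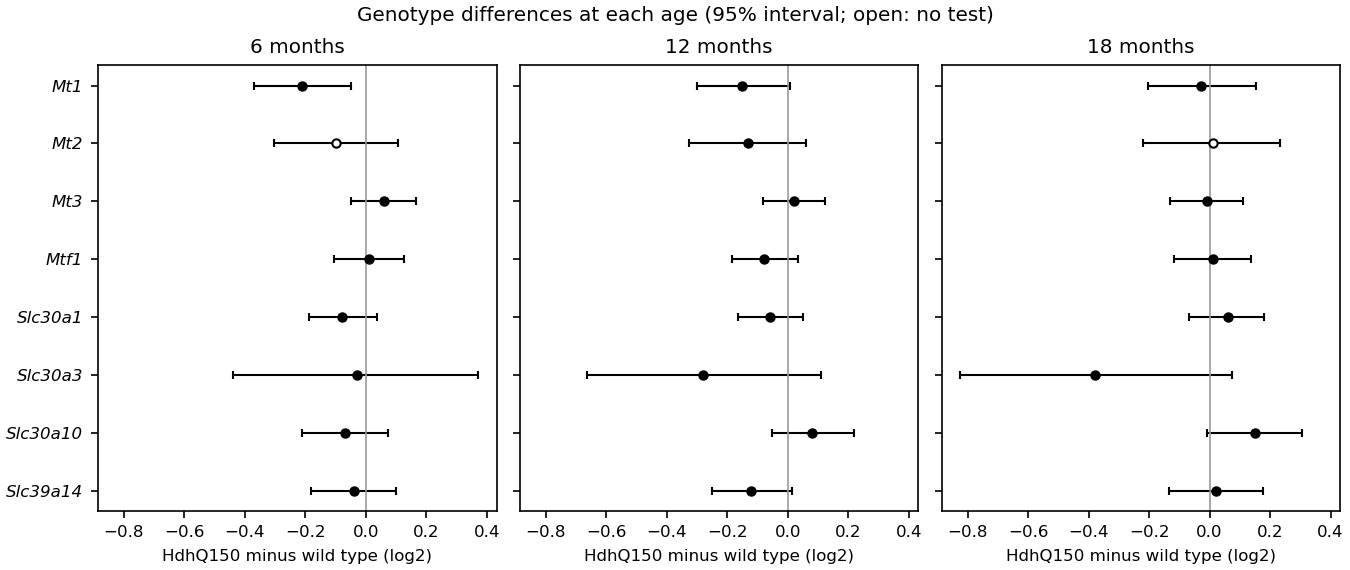
Difference in log2 level, HdhQ150 minus wild type, for the 8 genes at 6, 12 and 18 months, with unadjusted 95% intervals from limma. The open circles, Mt2 at 6 and 18 months, have no test; no other adjusted p passed the threshold, and Mt1 at 6 months has an interval wholly below 0.

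Whether the genotype difference changed with age was tested as an interaction. None of the 7 genes other than Mt2 passed between 6 and 12 months (0.00502% of all genes called) or between 12 and 18 months (0.0%), and at an unadjusted p under 0.05 there were 1297 and 412 genes. Over those steps Mt1 shifted by 0.06 (interval -0.162 to 0.286, adjusted p 0.964 by limma) and 0.12 (interval -0.113 to 0.357, adjusted p 1.0), and Slc30a3 by -0.24 (interval -0.808 to 0.324, adjusted p 0.926) and -0.10 (interval -0.693 to 0.493, adjusted p 1.0). The shift between 6 and 18 months contains the wild type difference by which Mt2 was chosen and is a description, with 0.11 for Mt2, 0.18 for Mt1, -0.34 for Slc30a3 and 0.22 for Slc30a10, where 0.0% of all genes passed.

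The second comparison is between ages within HdhQ150 mice, none of which entered the choice of Mt2. From here a difference is the older age minus the younger. Between 12 and 6 months, 5 of the 8 genes were lower and 0 higher, where 23.1% of all genes were called and 11.2% were lower. Mt2 fell by 0.76 on the log2 scale (1.69-fold, SE 0.0953, adjusted p 3.14e-06 by limma), with 6 of 6 mice at 12 months below all 5 at 6 months. Mt1 fell by 0.31 (1.24-fold, SE 0.0749, adjusted p 0.0037), also with no overlap. The third metallothionein, Mt3, had a difference of 0.07 (interval -0.0324 to 0.173, adjusted p 0.33).

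Slc30a3 had the largest fall of the 8 genes over that interval, 1.11 (2.17-fold, SE 0.189, adjusted p 0.000121), and Mtf1 fell by 0.18 (SE 0.0536, adjusted p 0.0164). Neither had overlapping mice. Slc39a14 fell by 0.18 (SE 0.0653, adjusted p 0.0416), with overlap. The mice of the 2 ages did not overlap for 4 of the 8 genes, against 14.0% of all genes, and the median difference was -0.18 over the 8 genes and 0.04 over all. Slc30a1 (0.07, adjusted p 0.345) and Slc30a10 (0.11, adjusted p 0.247) did not pass. The Mtf1 call was lost when mouse 526 of 12 months, or 1016 or 1017 of 6 months, was left out (adjusted p 0.0514 to 0.0597). The Slc39a14 call was lost without any 1 of 453, 462, 487 and 526 of 12 months and 1016, 1017 and 1023 of 6 months (0.0576 to 0.117), and without mice WT-454 and 1023 together (0.0678).

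Between 18 and 12 months the HdhQ150 mice showed 1 of the 8 genes higher and 0 lower, with 5.79% of all genes called and 4.18% higher. Slc30a3 rose by 1.10 (2.14-fold, SE 0.207, adjusted p 0.00105 by limma), and all 4 mice at 18 months were above all 6 at 12 months, a separation seen in 8.18% of all genes. Mt2 had a difference of 0.02 (interval -0.193 to 0.233, adjusted p 0.939), Mt1 of -0.16 (interval -0.325 to 0.0105, adjusted p 0.318) and Mtf1 of -0.13 (interval -0.255 to -0.0149, adjusted p 0.209). So of the 5 genes that were lower at 12 months, Slc30a3 alone passed in the opposite direction afterwards.

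Between 18 and 6 months, 3 of the 8 genes were lower in HdhQ150 mice and 0 higher, with 4.65% of all genes called and 2.37% lower. These were Mt2, Mt1 and Mtf1. Mt2 averaged 11.35 ± 0.21 at 18 months (SD, n = 4) and 12.07 ± 0.12 at 6 months (SD, n = 5), a fall of 0.74 (1.67-fold, SE 0.106, interval -0.958 to -0.524, adjusted p 0.000226 by limma). Mt1 averaged 10.25 ± 0.13 at 18 months and 10.70 ± 0.04 at 6 months, and fell by 0.46 (1.38-fold, SE 0.0834, adjusted p 0.00166). Mtf1 averaged 8.09 ± 0.06 at 18 months and 8.40 ± 0.10 at 6 months, and fell by 0.31 (1.24-fold, SE 0.0596, adjusted p 0.00276). None of the 3 had overlapping mice, and 9.32% of all genes had none. Slc30a3 differed by -0.02 (interval -0.45 to 0.412, adjusted p 0.98), Mt3 by 0.05 (interval -0.0671 to 0.162, adjusted p 0.742), and the median was -0.05 over the 8 genes and 0.02 over all. This comparison shares its 6-month mice with that of 12 against 6 months.

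**Figure D3:**
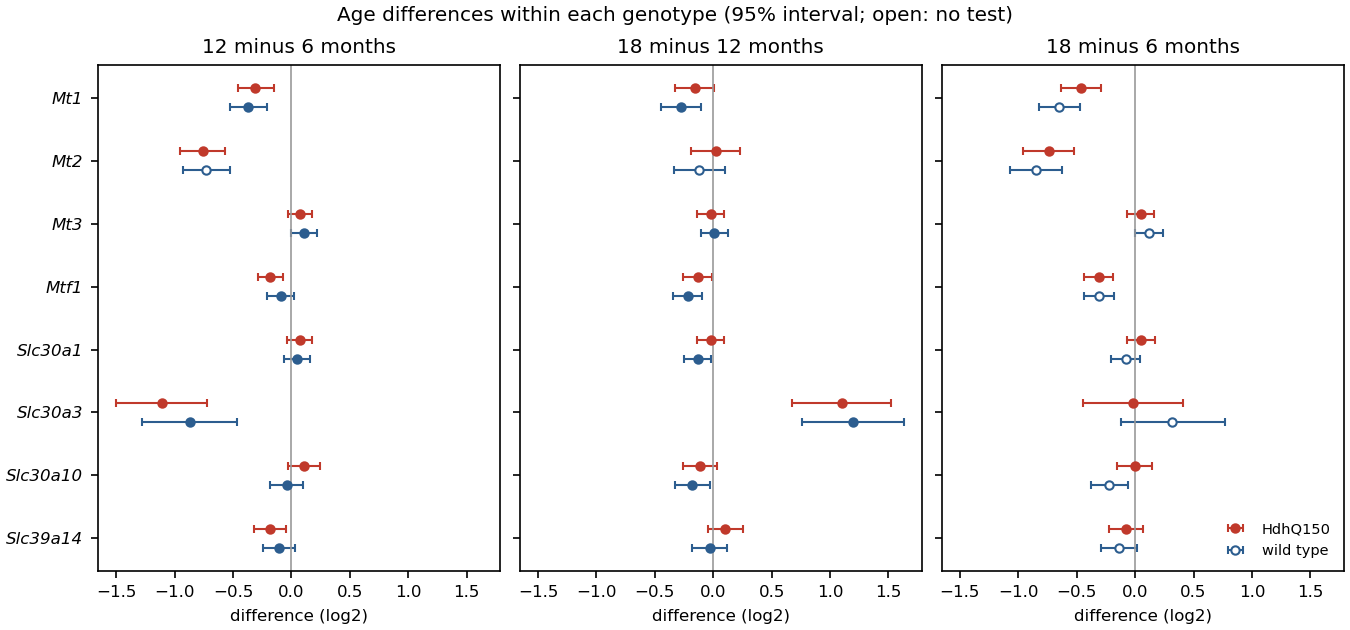
Differences in log2 level between ages, older minus younger, for the 8 genes in HdhQ150 and wild type mice, with unadjusted 95% intervals. Open circles have no test because they share the mice by which Mt2 was picked; Mt2 and Mt1 lie below 0 at 12 against 6 and at 18 against 6 months, and Slc30a3 lies below 0 at 12 against 6 and above 0 at 18 against 12 months.

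In wild type mice, 18 against 6 months is the comparison behind the choice and is a description. Mt2 differed by -0.85 (1.8-fold), Mt1 by -0.65 (1.57-fold), Mtf1 by -0.31, Slc30a10 by -0.22, Mt3 by 0.12 and Slc30a3 by 0.32, while 6.27% of all genes passed the threshold there. Mt1, Mt2, Mtf1 and Slc30a10 had no overlap between these ages, as was so for 9.09% of all genes. The other wild type steps share mice with it, so Mt2 is described in them as well, with -0.73 for 12 against 6 months and -0.12 for 18 against 12 months. Of the 7 other genes, 2 were lower and 0 higher at 12 against 6 months, with 25.7% of all genes called and 12.6% lower. Mt1 fell by 0.37 (1.29-fold, adjusted p 0.00122 by limma) and Slc30a3 by 0.87 (1.83-fold, adjusted p 0.00215), neither with overlap, as in 13.3% of all genes. Because Mt1 varied with Mt2 between mice, its tests in these wild type steps are not independent of the choice of Mt2. Mtf1 had -0.09 (adjusted p 0.226), Slc39a14 -0.11 (adjusted p 0.253) and Mt3 0.11 (adjusted p 0.127).

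At 18 against 12 months in wild type mice, 1 of those 7 genes was higher and 2 were lower, with 5.87% of all genes called, 3.81% higher and 2.07% lower. Slc30a3 rose by 1.20 (2.29-fold, adjusted p 0.000493 by limma). Mt1 fell by 0.28 (adjusted p 0.0416) and Mtf1 by 0.22 (adjusted p 0.0225), and none of the 3 genes overlapped, as in 6.67% of all genes. Both falls were near the threshold. With arrays centred on their median they had adjusted p-values of 0.0712 and 0.0741, and leaving out 1 mouse ended the Mt1 call for WT-461, WT-488, WT-508 or WT-527 of 12 months, WT-400, WT-401, WT-414 or WT-431 of 18 months and WT-1002 of 6 months (0.0502 to 0.126). The Mtf1 call ended without WT-508, WT-488 or WT-461 of 12 months or WT-431, WT-414 or WT-400 of 18 months (0.0517 to 0.0927), and without WT-414 Slc30a1 passed instead, lower by -0.20 (adjusted p 0.0253).

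Markers of other cell types moved with age too. Astrocytes are the usual source of Mt1 and Mt2 in brain, and all 12 of their listed markers were measured. The mean over these markers was 9.12, 8.92 and 9.14 in HdhQ150 mice at 6, 12 and 18 months, with mice at 9.07 to 9.21, 8.89 to 8.96 and 9.05 to 9.21. In wild type mice it was 9.16, 8.90 and 9.11, with mice at 9.06 to 9.24, 8.80 to 8.99 and 9.03 to 9.18. The list was thus low at 12 months, like Mt1 and Mt2, and at 18 months overlapped its 6-month range, where Mt1 and Mt2 did not. The list mean differed by -0.21 between 12 and 6 months and by 0.02 between 18 and 6 months in HdhQ150 mice, beside -0.76 and -0.74 for Mt2.

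Of the 12 astrocyte markers, 6 were lower and 0 higher at 12 against 6 months in HdhQ150 mice by limma, among them the glutamate transporter gene Slc1a3 (-0.50), the connexin genes Gja1 (-0.50) and Gjb6 (-0.56) and the transcription factor gene Sox9 (-0.28). At 18 against 6 months, 1 was higher, the intermediate filament gene Gfap (0.76), and 3 were lower, Sox9 (-0.38), Slc1a3 (-0.33) and Gja1 (-0.33). Over all genes 11.2% were lower at the first of these steps, and 4.65% were called at the second. The lowest level of any of the 12 in any mouse was 7.03, for Gjb6. With group and sex means removed, each of the 8 genes was set against each of the 15 gene list means over the 29 mice, which made 120 relations, and p-values were adjusted over these. Pearson's r of Mt2 with the astrocyte mean was 0.09 (permutation p 0.63, adjusted 0.936) and Spearman's rho 0.14 (permutation p 0.449, adjusted 0.877), and r was 0.04 without the 2 mice farthest from the median. The part of astrocyte content in the falls of Mt1 and Mt2 was not tested.

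**Figure D4:**
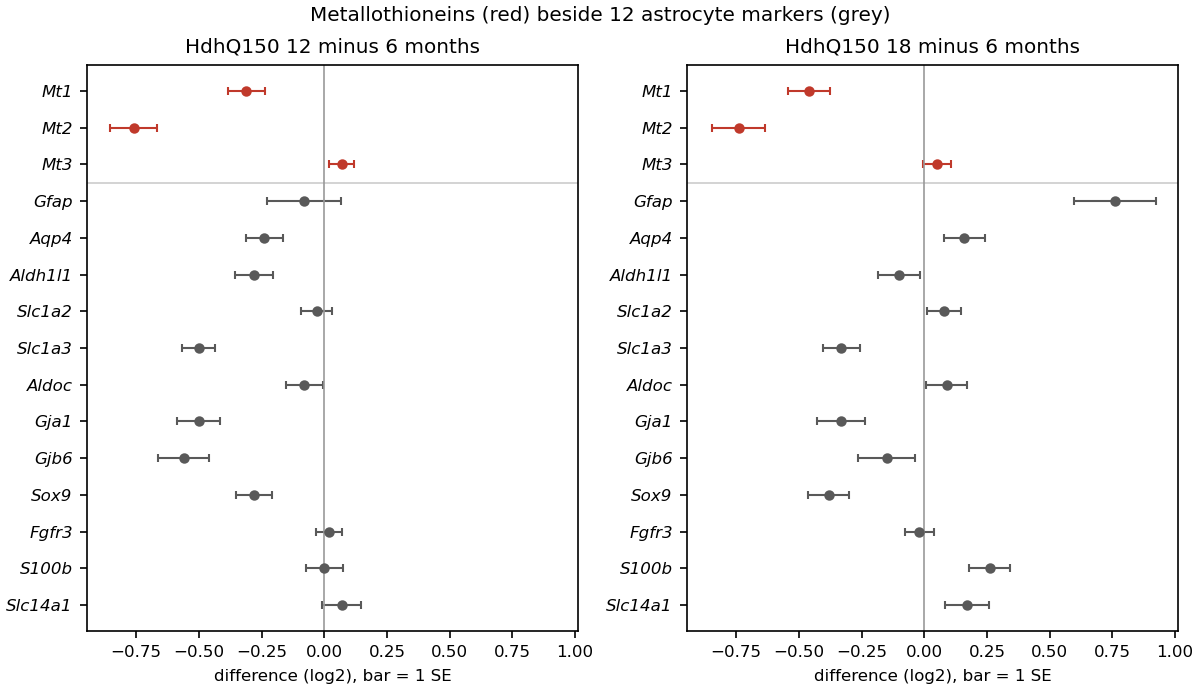
Differences in log2 level within HdhQ150 mice, 12 minus 6 and 18 minus 6 months, for Mt1, Mt2, Mt3 and the 12 astrocyte markers. Bars are 1 SE. In HdhQ150 mice at 18 against 6 months Mt2 is at -0.74 and Mt1 at -0.46. Of the astrocyte markers called there, Gfap is at 0.76, and Sox9 (-0.38), Slc1a3 (-0.33) and Gja1 (-0.33) are below 0. The list mean differed by 0.02.

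Slc30a3 followed the markers of cortical excitatory neurons, of which 11 were used. Their mean was 8.94, 8.06 and 9.04 in HdhQ150 mice at 6, 12 and 18 months (mice at 8.62 to 9.21, 7.66 to 8.61 and 8.69 to 9.40) and 8.97, 8.37 and 9.13 in wild type mice (8.68 to 9.36, 8.01 to 8.79 and 8.68 to 9.49). In HdhQ150 mice 9 of 11 were lower and 0 higher at 12 against 6 months, among them the cortical transcription factor gene Tbr1 (-1.95), the vesicular glutamate transporter gene Slc17a7 (-2.44), Nptx1 (-1.17) and Sv2b (-0.57), which encode a pentraxin and a protein of synaptic vesicles. At 18 against 12 months 8 were higher and 1 lower, and at 18 against 6 months 0 passed. Over all genes 11.2% were lower at 12 against 6 months and 4.18% higher at 18 against 12 months. Of the 120 relations 1 passed by both measures. Slc30a3 and the cortical list mean had Pearson's r of 0.79 and Spearman's rho of 0.79 (permutation p 1e-05 for each, the smallest that 100000 permutations can give, adjusted 0.0012), and r was 0.78 without the 2 mice farthest from the median. Mtf1 and the ependyma list mean passed by Spearman's rho alone (-0.61, permutation p 0.00062, adjusted 0.0372). Pearson's r for that pair was -0.56 (permutation p 0.00158, adjusted 0.0632), and -0.47 without the 2 mice farthest from the median. The amount of cortical tissue in each sample is not given in the sources used here, and its part in the Slc30a3 differences was not tested.

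Among the 28 pairs of the 8 genes, with group and sex means removed, 1 pair passed after adjustment over the 28. Mt1 and Mt2 varied together from mouse to mouse, with Pearson's r of 0.82 and Spearman's rho of 0.77 (permutation p 1e-05 each, adjusted 0.00028). The value of r was 0.76 without the 2 mice farthest from the median and 0.83 without mice WT-454 and 1023. These neighbouring genes have similar coding sequences, and probe sequences were not used here, so signal shared between their probe sets was not tested. The probe set of Vmn2r112, with a mean level of 4.93, had r of 0.81 with Mt2. The part of variation shared with such dim probe sets was not tested either. Mt2 and Slc39a14 had r of -0.48 (rho -0.46, permutation p 0.00827 and 0.0135, adjusted 0.116 and 0.188), and Mt1 and Slc39a14 had r of -0.45 (rho -0.41, permutation p 0.0136 and 0.0287, adjusted 0.127 and 0.268). Mtf1 had r of -0.33 with Mt1 (rho -0.38, permutation p 0.0833 and 0.0418, adjusted 0.466 and 0.292). With Mt2 its r was -0.08 (rho -0.08, permutation p 0.686 and 0.689, adjusted 0.774 and 0.877). The part of Mtf1 in the falls of Mt1 and Mt2 was not tested. Within groups of 4 to 6 mice no correlation was computed, and the labels give no batch in which to repeat these.

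**Figure D5:**
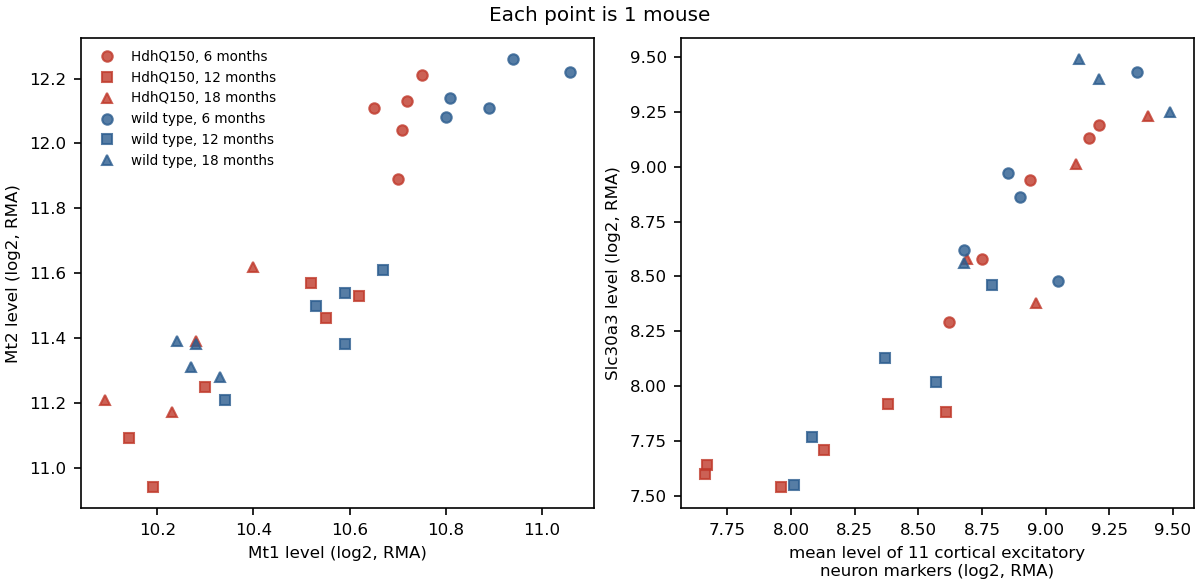
Each point is 1 mouse (HdhQ150 red, wild type blue). On the left, log2 level of Mt1 against that of Mt2, with the 6-month mice apart at the upper end, and on the right Slc30a3 against the mean of the 11 measured cortical markers, with the 12-month mice at the lower end.

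Across all genes, those whose deviations from group and sex means were most like Mt2 over the 29 mice were Mt1 (r = 0.82), the vomeronasal receptor gene Vmn2r112 (0.81), the cornified envelope gene Lce3c (0.72) and the olfactory receptor genes Olfr192 (0.72) and Olfr497 (0.70). Apart from Mt1 these are genes of sensory epithelia or skin, and their probe sets averaged 4.93, 6.94, 3.87 and 5.71 here. Those most like Slc30a3 were Fam189a1 (0.90), Dkkl1 (0.89), Scube1 (0.88), Gfod1 (0.88) and Stx1a (0.88), of which Stx1a encodes syntaxin 1A of the synaptic vesicle fusion machinery. These values describe shared variation, which includes array quality and tissue makeup.

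All 20 other ZnT and ZIP genes listed and Mt4, 21 in all, were measured. In HdhQ150 mice 1 was higher and 2 lower at 12 against 6 months, a step in which 11.2% of all genes were lower, with a median of -0.03 over the list and 0.04 over all genes. These were Slc30a8, which loads zinc into insulin granules in pancreas (0.24, adjusted p 0.0431 by limma), Slc39a6 (-0.44, adjusted p 1.66e-05) and Slc39a2 (-0.33, adjusted p 0.00476). Slc39a6 was higher at 18 against 12 months (0.32, adjusted p 0.00386) and Slc39a2 lower at 18 against 6 months (-0.34, adjusted p 0.0342). Slc39a2, a ZIP importer gene, was also the 1 of these 21 genes that differed by genotype. Its mean at 12 months was 7.44 in HdhQ150 mice and 7.81 in wild type mice (difference -0.34, SE 0.0841, adjusted p 0.0443), and 0 of 21 passed at 6 or 18 months. The Slc39a2 mean was below wild type at those ages too, at 7.80 against 8.08 and 7.50 against 7.89. In wild type mice 5 of the 21 were lower at 12 against 6 months, among them Slc39a6 (-0.33), Slc39a2 (-0.31) and Slc39a9 (-0.16), and 1 was higher at 18 against 12 months. Over all genes 12.6% were lower at the first of these steps and 3.81% higher at the second.

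Of 22 genes handling copper, iron and manganese, 3 were called at 12 against 6 months in HdhQ150 mice, a step in which 23.1% of all genes were. At that step 2 were higher, the transferrin gene Trf (0.29) and the copper-zinc superoxide dismutase gene Sod1 (0.16), and 1 was lower, the metalloreductase gene Steap2 (-0.50). Trf was the 1 called at 18 against 6 months (0.46, adjusted p 0.00547 by limma), and 0 of 22 differed by genotype at any age. Wild type mice had 4 lower and 0 higher at 12 against 6 months, where 12.6% of all genes were lower: the transferrin receptor gene Tfrc (-0.63), Steap2 (-0.66), the copper importer gene Slc31a1 (-0.58) and Atp2c1 (-0.36). Metallothioneins also respond to glucocorticoids and to oxidative and heat stress. Of 16 measured glucocorticoid-response genes, 1 was higher and 2 lower at 12 against 6 months in HdhQ150 mice, where 23.1% of all genes were called. At 18 against 6 months 1 was lower, the clock gene Per1 (-0.53, adjusted p 0.00388), where 2.37% of all genes were lower. Per1 (-0.41) and the kinase gene Sgk1 (-0.44) were also lower in HdhQ150 than in wild type mice at 12 months, and Pdk4 was higher at 18 months (0.37). Over all genes 0.938% and 0.135% were called for genotype at those ages. In wild type mice 2 of these 16 genes were higher and 1 lower at 12 against 6 months, where 25.7% of all genes were called. At 18 against 12 months 4 were lower, among them Pdk4 (-0.53), Sgk1 (-0.72) and Per1 (-0.55), and 1 was higher, Zbtb16 (0.74), a step in which Mt1 was also lower and 2.07% of all genes were lower. From mouse to mouse Mt1 had Pearson's r of -0.56 with the mean of this list (rho -0.44, permutation p 0.00155 and 0.018, adjusted over the 120 relations 0.0632 and 0.354), and r was -0.33 without the 2 mice farthest from the median. For Mt2 r was -0.41 (rho -0.33, permutation p 0.0271 and 0.0777, adjusted 0.326 and 0.548), and -0.24 without those farthest mice. Neither passed. Of 17 measured stress genes, 6 were lower and 1 higher in HdhQ150 mice at 12 against 6 months, beside 11.2% of all genes lower and 23.1% called. The small heat shock protein gene Hspb1 was lower by -0.73 there and by -0.78 at 18 against 6 months (adjusted p 0.00564), and the glutathione peroxidase gene Gpx1 was higher in HdhQ150 than in wild type mice at 12 months (0.36). Wild type mice had 1 stress gene higher and 2 lower at 12 against 6 months, where 25.7% of all genes were called. They had 1 lower at 18 against 12 months, where 2.07% of all genes were lower.

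Over all genes 23.1%, 5.79% and 4.65% were called in HdhQ150 mice at 12 against 6, 18 against 12 and 18 against 6 months. In wild type mice 25.7% were called at 12 against 6 and 5.87% at 18 against 12 months. In HdhQ150 mice striatal projection markers had 6 of 10 higher at 12 against 6 months and 5 of 10 lower at 18 against 6 months. At 18 against 12 months 10 of 10 were lower in HdhQ150 mice and 9 of 10 in wild type mice, in which 7 of 10 had been higher at 12 against 6 months. Their mean was 10.66, 10.98 and 10.26 in HdhQ150 mice at 6, 12 and 18 months and 10.91, 11.31 and 10.71 in wild type mice. These striatal markers moved in steps where Mt2, Mt1, Slc30a3, Mtf1 and Slc39a14 were called. Oligodendrocyte markers had 5 of 7 and 4 of 7 higher in HdhQ150 mice at 12 against 6 and at 18 against 6 months. At 12 against 6 months in HdhQ150 mice 3 of 7 microglia markers, 1 of 9 endothelial and mural markers, 1 of 6 meningeal and fibroblast markers and 1 of 5 oligodendrocyte precursor markers were lower, and at 18 against 6 months 0 of each passed. At the first of these steps 11.2% of all genes were lower. Choroid plexus (9 markers), ependyma (5) and erythrocytes (1 of 5 measured) had 0 calls in both comparisons. Choroid plexus markers were uneven among the 6-month mice, with list means of 6.56 to 8.19 in HdhQ150 and 6.49 to 8.42 in wild type mice. They were 6.79 to 6.96 and 6.64 to 7.24 in HdhQ150 mice of 12 and 18 months and 6.54 to 7.26 and 6.63 to 6.95 in wild type mice of those ages. All 9 had negative differences in wild type mice at 12 against 6 months, with a median of -0.33 and 0 past the threshold. As a description, the median at 18 against 6 months was -0.56 there. With group and sex means removed, r with this list mean was 0.06 for Mt2 and 0.09 for Mt1 (rho 0.15 each, permutation p 0.42 to 0.767, adjusted 0.877 to 0.947). The part of these shifts in the values of the 8 genes was not tested.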

How the data were processed

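The deposited values are log2 expression levels that the authors made with RMA in Affymetrix Expression Console, as the software is listed per the submitters' processing notes, from total RNA of 29 mice (TRIzol-chloroform, Affymetrix WT labeling kit with biotin, per the labels' protocols). No version or option of either is given in the sources used here. The lowest value was 1.08 and the highest 14.11, and array medians lay between 6.91 and 7.05. No depth exists for arrays, so the number of mice limits the precision.

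Of 35556 probe sets, 21789 had 1 annotated symbol, 21698 of these matched RefSeq by Entrez ID and 91 kept the annotation's name. The probe set of highest mean was kept for 999 genes with several. All 19938 genes were fitted with limma 3.58.1 in R 4.3.3 (6 group means, labelled sex, eBayes with trend, 22 residual degrees of freedom), two-sided, with no filter on dim probe sets. The fit was checked on simulated arrays with independent noise, which had no variation shared between genes and no outlying array. Correlations used residuals from that model and 100000 two-sided permutations. P-values measure the spread between the mice.

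The members, lists and tests were chosen with earlier results of these data known. The genes named are the 8 members, the 5 most like Mt2 or Slc30a3, and from each list up to 4 called genes per comparison in order of p. The lists were other zinc transporters with Mt4, copper, iron and manganese handling, glucocorticoid response, oxidative and heat stress, and markers of astrocytes, cortical excitatory and striatal projection neurons, choroid plexus, ependyma, endothelial and mural cells, meninges and fibroblasts, microglia, oligodendrocytes, their precursors and erythrocytes. Alternatives were other probe set choices, sex terms, groups, weights, shrinkage and centring, and leaving out mice.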

Additional observations from a re-analysis of the deposited data

Results flagged for a closer look

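Slc39a14 in wild type mice at 12 months had 1 mouse far from the others. Mouse WT-454 was at 7.84, where the other 4 mice were at 7.56 to 7.63, a gap of 0.74 of the whole range against a critical value of 0.71 (Dixon's test). Of 48 groups of mice looked at in this way over the 8 genes, this was the 1 found, and chance marks about 1 in 20. The same array had the lowest mean correlation to its group, 0.945.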

How the results depend on the processing

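Each of the counts of members past the threshold by limma was recomputed under 10 other settings and without each of the 29 mice, and no called value reversed. The counts of 0 for genotype at each age and for the change of genotype difference between successive ages stayed at 0, as did 3 for HdhQ150 mice at 18 against 6 months, 1 at 18 against 12 months and, without each mouse, 2 for wild type mice at 12 against 6 months (3 with array weights, which added Slc39a14 at -0.17, adjusted p 0.0443). For HdhQ150 mice at 12 against 6 months the 5 became 3 to 5 without each mouse, and the 3 were Mt1, Mt2 and Slc30a3. For wild type mice at 18 against 12 months the 3 became 1 to 3 without each mouse and 1, Slc30a3, with arrays centred on their median.

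In HdhQ150 mice Mt2 ranged over all 39 settings between -0.82 and -0.68 at 12 against 6 months (adjusted p 1.14e-07 to 0.000283) and between -0.83 and -0.68 at 18 against 6 months (4.28e-06 to 0.0107), and Slc30a3 between -1.24 and -1.0 at 12 against 6 months (1.03e-05 to 0.00446). Mt1 in HdhQ150 against wild type mice at 6 months ranged between -0.24 and -0.17, with adjusted p of 0.0738 to 0.538. In HdhQ150 mice Slc39a14 at 12 against 6 months no longer passed with only the groups compared (0.0772). In wild type mice Mt1 at 18 against 12 months no longer passed with all probe sets (0.0761) or without the sex term (0.0508). Over all genes, for genotype at 6 months 868 passed without mice WT-454 and 1023 and 1330 with array weights, against 5 in the fit reported, and 0 of the 8 members were among them, Mt2 as a description. The causes were not tested.

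No paired analysis was made: the replicate numbers name single mice and give no pairing, and litter did not enter the fit. Another probe set per gene could not be tried, since each member has 1. Age and batch cannot be told apart, and 4 to 6 mice a group leave wide intervals for Slc30a3.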
